A study of Arabidopsis thaliana with 12 samples.

Results

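SPT (SPATULA, At4g36930), ALC (ALCATRAZ, At5g67110) and NGA3 (NGATHA3, At1g01030) are regulators of carpel, style and fruit development, and they were followed across flowers of 10 Arabidopsis accessions. They were chosen by this role and because the array has a probe set named for each, and the 3 genes are described here out of 13286 loci with a probe set named for a single locus. The genes lie on chromosomes 4, 5 and 1, each has 1 probe set, and RefSeq lists all of them as protein-coding. The study classed C24, RLD, Cvi, Rsch and Da as producers of saiginols, its phenylacylated flavonols, and Stw, Sap, Ws, Ler and Col-0 as non-producers, and RNA labelled as flower from these 10 accessions was read on 12 ATH1 arrays. The study describes all as accessions, started on agar in long days and then moved to soil. It gives no day length for the soil phase. The labels name no transgene or treatment, and carpels are one organ among several in a flower. C24 and Col-0 have 2 arrays each, titled ExpI and ExpII, and every other accession has 1 array. Whether duplicates hold RNA of different plants is not stated, so a p between C24 and Col-0 may measure only the spread between hybridizations. Ler is spelled Laer in the labels. For the arrays titled Sap and Stw the ecotype label reads RLD and Sap-0, respectively, and samples were named by title. By these labels the array titled Sap would be of RLD, a producer, while the array titled Stw would stay a non-producer.

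The gynoecium of Arabidopsis is formed from fused carpels and is topped by a style and a stigma, and after fertilization it becomes the fruit, which opens along the valve margins. SPT encodes a basic helix-loop-helix (bHLH) transcription factor that promotes the growth of tissues at the carpel margins, such as the style, stigma, septum and transmitting tract. ALC encodes its closest bHLH relative, which is needed for the separation layer of the valve margin and shares early gynoecium functions with SPT. NGA3 encodes a B3-domain transcription factor, and the NGA genes act redundantly in forming the style and stigma, in part through local auxin synthesis.

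Signals are linear intensities that the authors had scaled to a common level, with a mean of 100.01 on every array once 2% at either end is trimmed. The 27 probe sets for Bacillus subtilis control genes reached at most 16.6 on any array. The mean signal was no higher in 32.6% of the 13436 probe sets tested, and whether this level marks detection was not tested. Of the 10 floral organ identity genes listed to check the tissue, 0 were measured by a probe set naming 1 gene. Signals of 4 of 8 pollen markers summed to 64.3 to 189.8 in producers and 65.2 to 152.0 in non-producers, and those of 2 of 7 tapetum markers to 282.1 to 818.3 and 477.9 to 939.5. None of these 6 genes was at 0 on any array, but only 93 values of all 22810 probe sets were 0, so this does not show detection. The pollen marker ANX1 lay below the highest bacterial control on some arrays, with 0.8 against 9.6 in Sap and 1.3 against 16.6 in RLD. On others it lay above, with 13.0 against 8.8 in Da.

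SPT varied little. In producers its signal was 86.8 and 74.5 in C24, 89.8 in Cvi, 100.8 in Da, 82.5 in RLD and 75.9 in Rsch. In non-producers it was 79.5 and 85.4 in Col-0, 83.5 in Ler, 97.6 in Sap, 74.0 in Stw and 83.8 in Ws. Da and Sap were the highest and Stw and Rsch the lowest, and each of these pairs holds a producer and a non-producer. The mean over accessions was 85.1 ± 8.63 (SD, n = 10 accessions), a coefficient of variation of 10.1%, and all 10 lay within 1.25-fold of their median. On every array SPT was above the highest bacterial control of that array. In whole flowers, fewer carpel cells and less SPT RNA per cell cannot be told apart.

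ALC gave 203.0 and 120.6 in C24, 203.2 in Cvi, 265.3 in Da, 190.1 in RLD and 212.7 in Rsch. Among non-producers it gave 186.6 and 196.2 in Col-0, 213.8 in Ler, 237.1 in Sap, 181.2 in Stw and 192.9 in Ws. The second C24 array stood apart from the other 11, whose signals began at 181.2 and had a median of 203.0, 1.68 times its value. Without that array the first C24 array placed C24 in the middle of the range. The mean over accessions was 205.0 ± 29.4 (SD, n = 10), a coefficient of variation of 14.4%. Da was again the highest and Sap the next, as for SPT.

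NGA3 was dim. Its signal was 13.0 and 11.3 in C24, 17.7 in Cvi, 15.2 in Da, 4.0 in RLD and 12.5 in Rsch. Among non-producers it was 15.4 and 21.2 in Col-0, 18.0 in Ler, 16.6 in Sap, 17.5 in Stw and 10.7 in Ws. The RLD array gave the lowest signal, and the other accessions did not separate by class. The array titled Sap, whose ecotype label reads RLD, gave 16.6. NGA3 exceeded the highest bacterial control of the same array on 10 of 12 arrays and 16.6, the highest control on any array, on 4. The exceptions were the RLD array, with 4.0 against a control of 16.6, and the first C24 array, with 13.0 against 13.9. The differences of NGA3 given in the following thus rest on signals close to those of bacterial genes absent from plants.

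**Figure D1:**
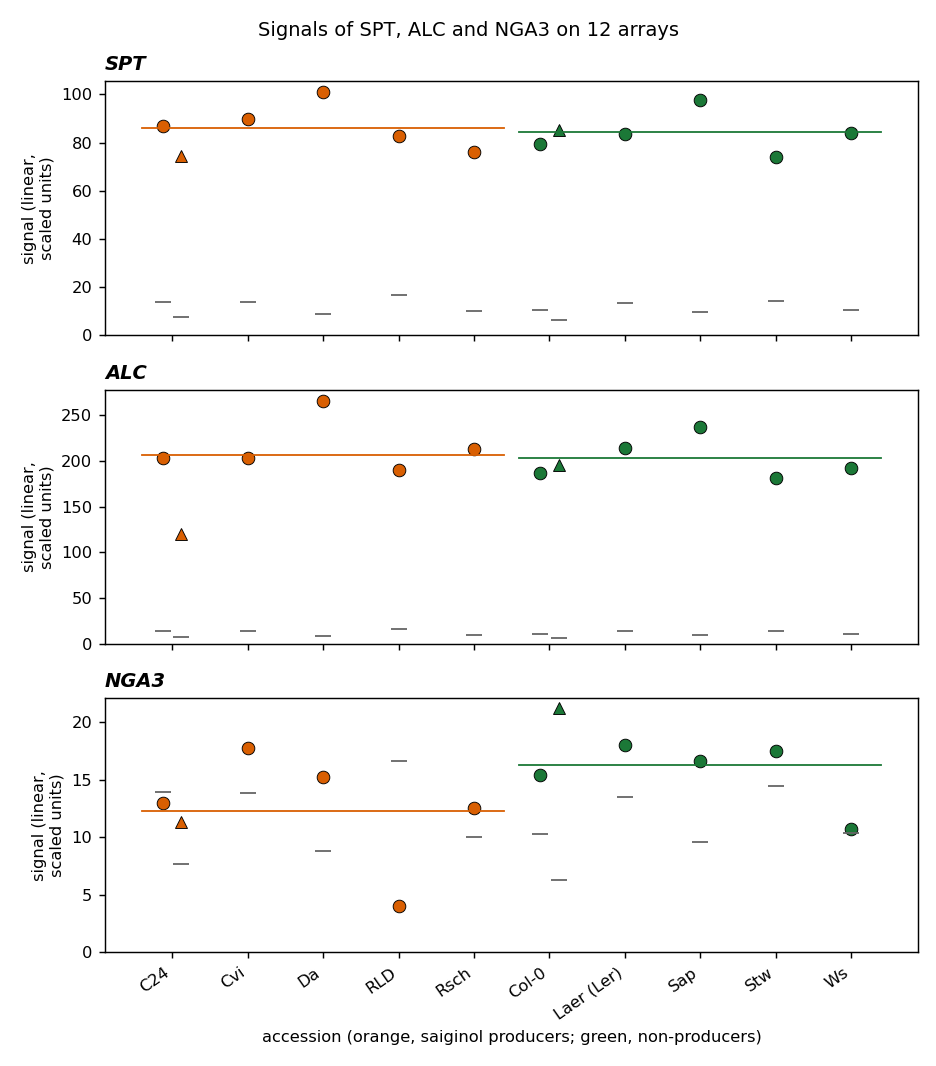
Signal of SPT, ALC and NGA3 (linear scaled units, y axes from 0) on each array by accession, with circles for the ExpI or single array, triangles for ExpII, grey dashes for the highest bacterial control on that array and horizontal lines for the mean of the 5 accessions of a class. SPT stays between 74.0 and 100.8, ALC reads 120.6 on the second C24 array, and NGA3 is close to the highest bacterial control, above it on 10 of 12 arrays and below it in RLD, with 4.0.

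The order of accessions was then set against the spread. In SPT it ran from Da through Sap, Cvi, Ws, Ler, RLD, Col-0, C24 and Rsch to Stw, and the highest was 1.36 times the lowest. In ALC it ran from Da through Sap, Ler, Rsch, Cvi, Ws, Col-0, RLD and Stw to C24, a range of 1.64-fold. In NGA3 it ran from Col-0 through Ler, Cvi, Stw, Sap, Da, Rsch, C24 and Ws to RLD, a range of 4.58-fold that rests on the 4.0 in RLD, below the control of that array. None of the 9 pairs of neighbours in any of the 3 orders passed limma's adjusted threshold of 0.05, with the residual spread taken from the duplicates of C24 and Col-0. An unadjusted p under 0.05 was reached in 1 case, NGA3 in Ws and RLD (10.7 and 4.0, adjusted p = 0.764 from limma), against 0.592% of neighbours over all probe sets. Each of these accessions has 1 array, and the spread is assumed to be that of the duplicates.

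Over all 45 pairs of accessions, 0 passed the adjusted threshold in any of the 3 genes, and 0 (0%) of the tests over all probe sets passed. The number of pairs at an unadjusted p under 0.05 was 0 for SPT, 0 for ALC and 9 for NGA3, against 6.91% of pairs over all probe sets. All 9 pairs of NGA3 include RLD, so this count rests on 1 array whose signal of 4.0 lay below its control of 16.6. Da exceeded Stw in SPT by 0.44 on the log2 scale (standard error 0.36), and Da exceeded C24 in ALC by 0.76 (standard error 0.43). For NGA3 the difference between Col-0 and RLD was 1.93 (standard error 0.35, adjusted p = 0.351 from limma), with the same limit on RLD.

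A single test of any difference among the 10 accessions gave an adjusted p of 1.00 for SPT, 1.00 for ALC and 0.564 for NGA3 (limma's moderated F test). Of all probe sets tested, 0 (0%) passed this test and 9.62% had an unadjusted p under 0.05, while 0 of the 3 genes did. With 2 residual degrees of freedom, the duplicates give this test little precision. If they are repeat hybridizations of the same RNA, neither this test nor those of pairs of accessions includes the spread between plants.

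The SD of log2 signals over the 10 accessions was 0.14 for SPT, and 4.29% of the probe sets tested had a smaller one. For ALC it was 0.21, with 18.2% of the probe sets below it. The median over all probe sets was 0.35. Dim probe sets spread more on this scale, so SPT and ALC were also set among the 6000 probe sets with a mean signal of at least 50, whose median SD was 0.25. There 8.40% had a smaller SD than SPT and 33.5% a smaller one than ALC. SPT thus lay near the lower edge of the spread for its signal, and ALC in the lower part.

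The SD of NGA3 was 0.59, above that of 73.6% of the probe sets. The RLD array decided this value, since without it the SD was 0.27. It was also the lowest of the 12 arrays in 7.54% of all probe sets. With a pseudocount of 16 in place of 1, the SD of NGA3 was 0.24.

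**Figure D2:**
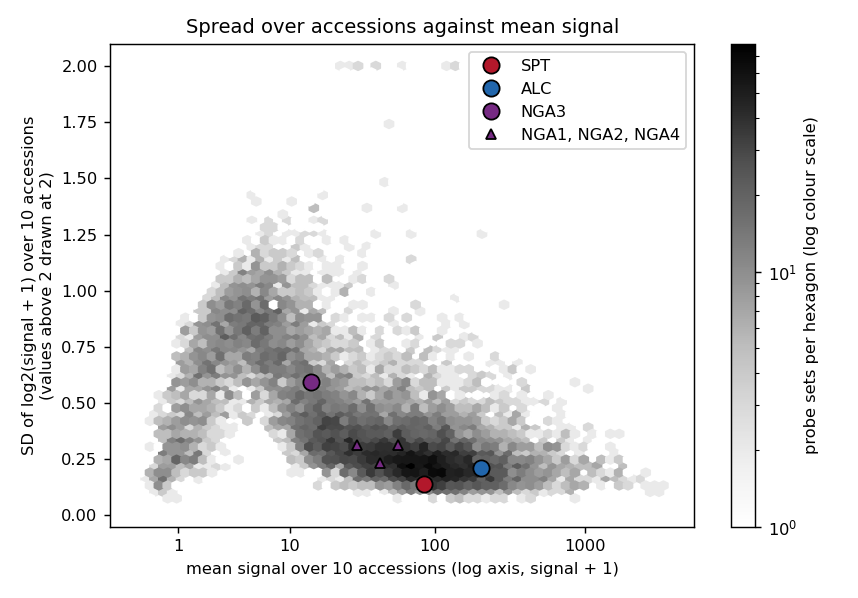
SD of log2(signal + 1) over 10 accessions (y axis) against the mean signal (x axis, log scale) for the 13436 probe sets tested, drawn as a density of hexagons, with SPT, ALC, NGA3 and the other NGA genes marked and SDs above 2 drawn at 2. SPT, with an SD of 0.14, lies at the lower edge of the density and NGA3, with 0.59, in the dim region where the spread is wide.

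Producers and non-producers, the comparison for which the arrays were made, were then set against each other on accession means. SPT had a mean signal of 85.9 ± 9.70 in producers against 84.3 ± 8.47 in non-producers (SD, n = 5 accessions each). The log2 difference was 0.03, with a 95% interval from -0.25 to 0.30 (adjusted p = 0.981 from limma, exact two-sided permutation test over all splits of the accessions, p = 0.786). The classes overlapped throughout their range.

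ALC had 206.6 ± 38.0 in producers and 203.3 ± 22.3 in non-producers (SD, n = 5 each). The log2 difference was 0.0018, with an interval from -0.34 to 0.34 (adjusted p = 0.999 from limma, exact two-sided p = 0.992), and it turned in sign under several alternatives. For both bHLH genes the intervals leave out changes as large as 2-fold in either direction between these classes.

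NGA3 had 12.3 ± 5.16 in producers and 16.2 ± 3.15 in non-producers (SD, n = 5 each), and the classes overlapped. The log2 difference was -0.47, with an interval from -1.20 to 0.26 (adjusted p = 0.833 from limma, exact two-sided p = 0.222). Without RLD it was -0.15 and with a pseudocount of 16 it was -0.20, so the size of this difference rests on the RLD array and on the low signals. Of the 3 genes, 0 passed the adjusted threshold, 0 had an unadjusted p under 0.05 and in 0 did the classes not overlap, against 0%, 6.32% and 1.22% of all probe sets tested.

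C24 and Col-0, the parents of the introgression lines of the study, were compared with 2 arrays against 2. SPT had 80.7 ± 8.70 in C24 against 82.5 ± 4.17 in Col-0 (SD, n = 2 arrays each), a log2 difference of -0.03 with an interval from -0.71 to 0.64 (adjusted p = 0.987 from limma). The arrays of both accessions overlapped, and the sign turned without the second C24 array (0.074). ALC had 161.8 ± 58.3 in C24 and 191.4 ± 6.79 in Col-0 (SD, n = 2 each), a log2 difference of -0.29 with an interval from -1.21 to 0.64 (adjusted p = 0.902 from limma). Without the second C24 array the difference was 0.085, so the lower mean of ALC in C24 came from that array alone.

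NGA3 had 12.2 ± 1.20 in C24 and 18.3 ± 4.10 in Col-0 (SD, n = 2 each), and both C24 arrays lay below both Col-0 arrays. The log2 difference was -0.54 with an interval from -1.31 to 0.23 (adjusted p = 0.792 from limma). It was -0.32 without the second Col-0 array, -0.28 with a pseudocount of 16 and -0.11 with 64. Arrays of C24 and Col-0 did not overlap in 35.9% of all probe sets, in 18.2% with C24 lower, and 0 (0%) passed the adjusted threshold, while 7.90% had an unadjusted p under 0.05. Of the 3 genes, 0 had an unadjusted p under 0.05, and 0 had a positive difference where 50.4% of all probe sets did.

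**Figure D3:**
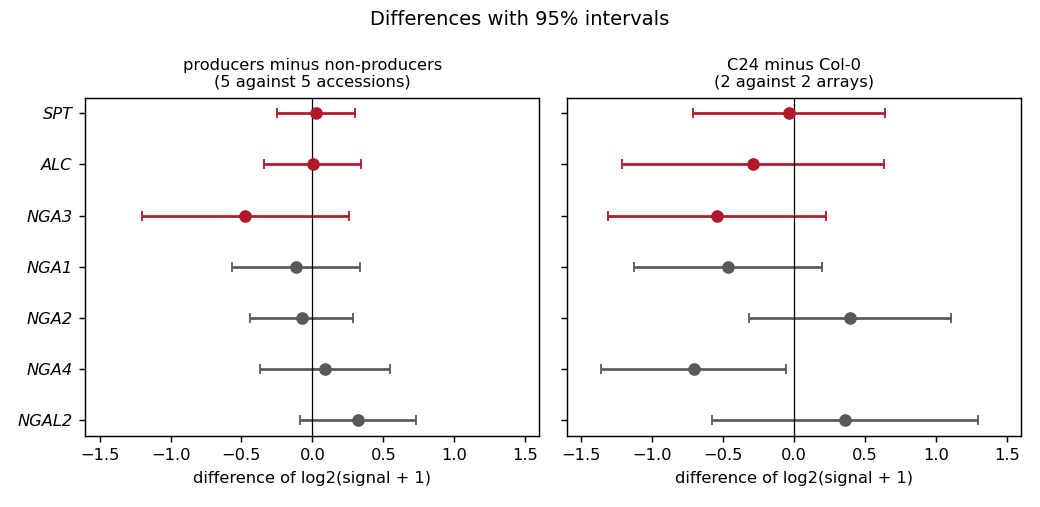
Difference of log2(signal + 1) with its 95% interval from limma (x axes) for producers minus non-producers (left) and C24 minus Col-0 (right), for SPT, ALC and NGA3 in red and the B3 relatives of NGA3 in grey. All intervals on the left include 0, and those of SPT and ALC are the narrowest among the 3 genes in red. On the right only the interval of NGA4, with a difference of -0.71, lies below 0 before adjustment.

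Of 11 listed B3 relatives of NGA3, NGA3 included, 5 were measured, and NGA1, NGA2, NGA4 and NGAL2 each exceeded the highest bacterial control on all 12 arrays. NGA1, NGA2 and NGA4 share the role of NGA3 in the style and stigma, and NGAL2 belongs to the NGATHA-like group. NGA1 gave 86.2 and 84.5 in Col-0, 57.6 and 65.8 in C24 and 75.1 in Sap, while the other 7 accessions lay between 44.5 in Ler and 57.0 in Rsch. NGA4 gave 40.7 and 38.8 in Col-0 and 23.2 and 24.8 in C24, and the other 8 accessions lay between 20.7 in Stw and 36.1 in Da. Both genes thus had both of their highest arrays in Col-0.

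NGA2 had its lower signals in Col-0, with 35.5 and 32.3 in Col-0, 40.1 and 50.3 in C24, and a range from 32.5 in RLD to 54.7 in Sap among the other accessions. Col-0 had the highest mean of the 10 accessions in NGA1, NGA3 and NGA4, where 5.59% of all probe sets had it, and the second lowest in NGA2 and NGAL2. For NGA3 this place went to Cvi after quantile normalization or median centring, and for NGA1 and NGA4 Col-0 stayed the highest under both. Probes follow Col-0, and the part of sequence differences in these values was not tested.

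Between C24 and Col-0 the log2 difference was -0.46 for NGA1 (adjusted p = 0.792 from limma), 0.40 for NGA2 (adjusted p = 0.832) and -0.71 for NGA4 (standard error 0.25, adjusted p = 0.585). In the main fit NGA4 was the 1 gene of the B3 list with an unadjusted p under 0.05, and 4.64% of all probe sets reached this with C24 lower. NGA1 reached it with pseudocounts of 16 and 64 alone. For NGA4 it held under both scalings, both pseudocounts, the filter on low signals and the variance trend (unadjusted p = 0.0130 to 0.0487 from limma). No adjusted p of NGA4 was below 0.430 in any refit. This was lost with the replicate number as a block (unadjusted p = 0.0704 from limma) and without any 1 of the arrays (0.0677 to 0.132). NGAL2 had 34.4 and 57.9 in C24 and 31.8 and 37.6 in Col-0, which overlapped. Between producers and non-producers the log2 differences were -0.11 for NGA1, -0.08 for NGA2, 0.09 for NGA4 and 0.32 for NGAL2, with a smallest adjusted p of 0.809 from limma for NGAL2. NGAL2 was highest in Da, at 70.3, and lowest in Ws among accession means, at 32.1.

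Of 11 listed bHLH relatives, 2 were measured, SPT and ALC themselves. Over the 10 accessions the log2 signals of SPT and ALC had a Pearson correlation of 0.73 (Spearman's rho 0.72), given as a description, since both genes were read on the same arrays. The Pearson correlation fell to 0.21 without Da and Sap, the accessions farthest from the median of SPT, so its size depends on those arrays. Leaving out the most extreme accessions narrows the range, which can by itself lower a correlation. The correlation of NGA3 was 0.17 with SPT and 0.25 with ALC. Within the NGA genes, NGA3 had correlations of 0.07 with NGA1, 0.46 with NGA2 and -0.32 with NGA4, and without RLD and Ws those with NGA2 and NGA4 were 0.01 and 0.18.

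Of 35 listed regulators of carpel and fruit, 7 were measured. Besides SPT and ALC these were SEU, a co-repressor partner of LUG, HAF, a bHLH factor of the transmitting tract, JAG, a zinc-finger promoter of organ growth, YAB3, a YABBY factor of lateral organs, and INO, a YABBY factor of the outer ovule integument. Between producers and non-producers 0 of 7 passed the adjusted threshold in limma and 0 had an unadjusted p under 0.05, against 0% and 6.32% of all probe sets, with log2 differences from -0.19 to 0.03, the latter for SPT, and a smallest adjusted p of 0.895. SPT had the smallest SD over accessions of the 7, 0.14, and INO the largest, 0.40. INO ranged from 37.0 in Cvi to 87.7 in Ler and YAB3 from 65.6 in Cvi to 161.5 in Rsch.

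Of 18 listed regulators of the style and stigma and local auxin genes, 8 were measured, the 4 NGA genes with SHI, YUC2, YUC4 and PID2. Between producers and non-producers 2 had positive and 6 negative log2 differences, where 46.1% of all probe sets were positive. Of the 8, 0 passed the adjusted threshold in limma and 0 had an unadjusted p under 0.05, against 0% and 6.32% of all probe sets. SHI, a RING-like zinc-finger activator of auxin synthesis genes in the style, had means of 29.8 and 33.9 in producers and non-producers. The auxin synthesis genes YUC2 and YUC4 had 49.2 and 51.6, and 14.5 and 17.2, and PID2, a kinase gene, had 14.5 and 13.7. The number with a positive difference was 0 with accession as a random block or without Stw and 3 with median centring. Of the 11 listed genes of dehiscence, lignin and gibberellin at the valve margin, ADPG1, a polygalacturonase of dehiscence, was the 1 measured, with 38.1 in producers and 33.3 in non-producers (adjusted p = 0.914 from limma).

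The low ALC signal on the second C24 array had parallels. All 7 measured regulators of carpel and fruit were lower on the second than on the first C24 array, with a median log2 difference of -0.57, against 50.9% of all probe sets tested and a median of -0.01. ALC, singled out by its low signal on that array, is 1 of these 7, so only the other genes are parallels. On the first and second array JAG gave 28.9 and 8.7, INO 57.1 and 26.8, ALC 203.0 and 120.6, HAF 269.8 and 181.8, YAB3 126.8 and 91.9, SPT 86.8 and 74.5 and SEU 111.9 and 101.7. JAG and INO, besides ALC, thus had the widest gaps. Besides ALC, JAG and INO also had their lowest signal of all 12 arrays on the second C24 array, which held in 13.9% of all probe sets. All 7 were also lower there with median centring, with quantile normalization and with pseudocounts of 16 and 64.

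Between the Col-0 arrays 3 of the 7 were lower on the second, against 53.1% of all probe sets. These 3 were SEU, HAF and INO, and INO gave 82.8 and 41.4 in Col-0. Of the NGA genes, NGA3 was lower on the second C24 array, at 13.0 and 11.3, and the others were higher. NGA1 gave 57.6 and 65.8, NGA2 40.1 and 50.3 and NGA4 23.2 and 24.8 on the first and second C24 array. In the whole list of style and stigma genes 4 of 8 were lower on the second C24 array, against 50.9% of all probe sets. Besides NGA3 these were SHI (34.7 and 27.2), YUC2 (57.0 and 43.7) and PID2 (12.7 and 8.0), while YUC4 was higher (15.2 and 17.5). ADPG1, the only measured gene of the valve margin list, was also higher on the second C24 array, at 44.5 and 59.7. The 4 pollen markers summed to 100.8 on the first and 218.5 on the second C24 array, the highest sum of the 12 arrays, with BUPS1, ANX1 and ANX2 higher on the second and ACT12 at 30.5 and 29.9. The 2 tapetum markers summed to 965.6 and 670.9, with the gene At5g07230 (listed as A9-like) at 787.8 and 480.9 and AMS at 177.8 and 190.0. Their part in the ALC difference was not tested. As a pair of arrays, the C24 duplicates carry no test of these differences.

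**Figure D4:**
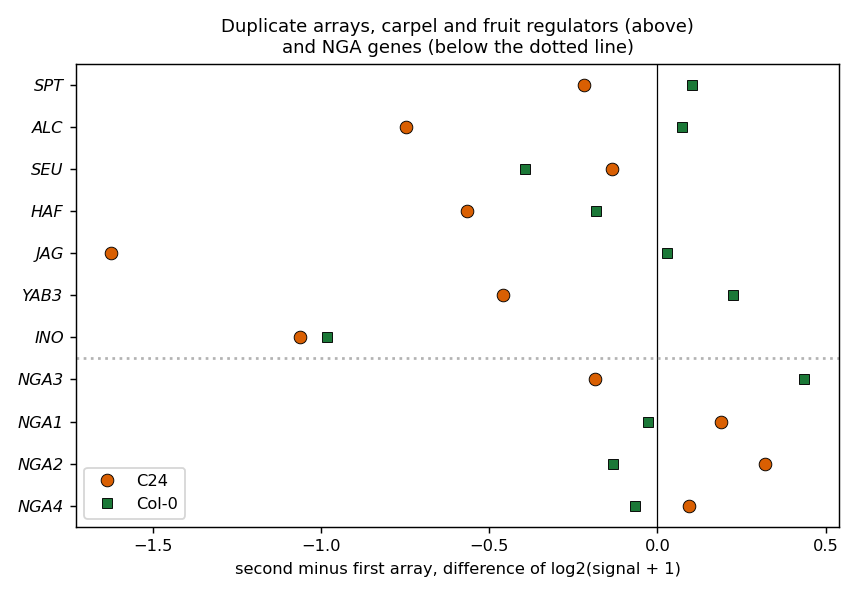
Second minus first array of C24 (circles) and of Col-0 (squares) as a difference of log2(signal + 1) (x axis), for the 7 measured regulators of carpel and fruit (above the dotted line) and the NGA genes (below it). All 7 circles above the line lie below 0, with JAG and INO the farthest, while those of NGA1, NGA2 and NGA4 lie above 0.

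The genes whose pattern over the 10 accessions was most like each of the 3 were searched among the 6000 probe sets with a mean signal of at least 50. For SPT they were AT5G65520 (Pearson r = 0.92, Spearman's rho 0.79), AT5G03905 (0.91 and 0.89), the chloroplast ribosomal protein gene rpl16 (0.91 and 0.87), AT5G01160 (0.91 and 0.84) and AT4G26400 (0.89 and 0.72). For ALC they were AT4G27590 (0.96 and 0.79), CP1 (0.94 and 0.89), AT5G60140 (0.92 and 0.81), GILT (0.91 and 0.88) and AT1G19330 (0.90 and 0.89). For NGA3 they were AT4G25730 (0.91 and 0.71), AT5G05100 (0.90 and 0.68), AT3G54000 (0.90 and 0.76), AT3G43240 (0.90 and 0.65) and AT4G03260 (0.89 and 0.61). Much of the pattern of NGA3 is the low RLD array, as its SD was 0.59 with and 0.27 without RLD. Its correlations with these genes were not computed without that array. At r of 0.9 or more were 4, 4 and 3 probe sets, and the most negative values reached -0.91, -0.95 and -0.94, so strong correlations of both signs occur among so many genes over 10 points that share arrays. Listed regulators with a mean signal under 50, such as NGA2, NGA4, JAG and SHI, were not searched, so their absence says nothing. None of the listed regulators that were searched was among the genes named.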

How the data were processed

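Biotin-labelled floral RNA was hybridized to ATH1 arrays at a service laboratory. Each deposited value is a linear intensity of a probe set. That the authors scaled them to a common level was read from the values, and the summarization software is not given in the sources used here. Names came from GEO's platform annotation and RefSeq (TAIR10.1), and the 13436 with 1 locus of 22810 were tested. The files name no genome build, so no coordinates are given, and probe sequences were not used here.

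Signals were taken as log2(signal + 1), a scale that understates fold changes of dim genes. All probe sets tested were fitted with limma 3.58.1 (R 4.3.3), and adjusted p-values (Benjamini-Hochberg) were called under 0.05. Producers and non-producers, as the methods of the study class the accessions, were compared on accession means, with exact permutation tests in SciPy 1.17.1. C24 and Col-0 were compared on arrays, and the 10 accessions with an F test. The procedure was tested on simulated data, with shifts added only to the brighter probe sets and larger than the log2 differences given here. That test does not cover differences of the sizes given here or dim genes such as NGA3. The precision is limited by the number of arrays.

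The 9 gene lists hold 117 entries. Named are the 3 genes, all measured B3 relatives, examples of the other lists and, for each gene, the 5 probe sets of highest correlation. The 7 carpel genes were all named after their values were seen. The genes and lists were chosen with earlier results of these data known. Alternatives covered scaling, pseudocount, a filter on low signals, the variance prior, blocks and omitted arrays or accessions.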

Additional observations from a re-analysis of the deposited data

Results flagged for a closer look

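For NGA3, RLD was the lowest of the 10 accessions by a wide gap, with 4.0 against 10.7 in Ws, the next, and the gap over the range was 0.469. Among the 5 non-producers Ws was the lowest for NGA3, with 10.7 against 16.6 in Sap, and the gap over the range was 0.776. These were 2 of 21 groups examined for SPT, ALC, NGA3 and the B3 relatives, and chance flags about 1 in 20. Both rest on single arrays and on signals near those of the bacterial controls.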

How the results depend on the processing

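In 141 refits of the 9 results for SPT, ALC and NGA3, the adjusted p from limma never fell below 0.469, and 17 refits turned the sign of a difference. For producers minus non-producers, the log2 difference of ALC turned to -0.035 with accession as a random block, -0.080 with the ExpII arrays alone and -0.0043 after quantile normalization, and ran from -0.095 to 0.094 without 1 accession or array. That of SPT was -0.0062 with the ExpII arrays alone and ran from -0.033 to 0.080. NGA2 turned to 0.060 and NGA4 to -0.025 without Sap and Stw, and NGA4 to -0.010 with the random block. Leaving out Sap and Stw gave 0.038 for SPT, 0.025 for ALC and -0.41 for NGA3. Without 1 accession or array NGA1 ran from -0.21 to 0.024, NGA2 from -0.16 to 0.0054 and NGA4 from -0.015 to 0.21. For C24 minus Col-0, SPT was 0.0041 after quantile normalization and ran from -0.14 to 0.074 without 1 array, ALC from -0.66 to 0.085 and NGAL2 from -0.0074 to 0.73. NGA3 kept its negative sign in all 24 and 12 refits, at -0.63 to -0.07 and -0.76 to -0.11. The number of probe sets past the adjusted threshold rose from 0 to 2 for producers against non-producers with the random block, pseudocounts of 16 and 64, the lowest 25% of mean signals left out or the variance trend (0 to 2 without 1 accession or array), to 23 and 32 for C24 against Col-0 with that filter and that trend, and to 30 and 12 for the differences among accessions. With the replicate number as a block, C24 and Col-0 differed past the threshold in 0 probe sets, and the difference of NGA3, -0.54, which the block cannot change in this balanced design, had an adjusted p of 0.764. Deviations of the same-numbered arrays had a correlation of 0.05, so the numbers were not taken to pair the arrays. The number of the 7 carpel and fruit regulators with a positive difference ran from 0 to 4 for producers minus non-producers and from 1 to 6 for C24 minus Col-0, where it was 6 without the second C24 array, and that of the 8 style and stigma genes from 0 to 3 for producers minus non-producers. The refits without single duplicates between producers and non-producers and among accessions and those of the C24 duplicates were chosen after seeing the data. The cause of these shifts was not tested.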
